A study of Mus musculus with 9 samples.

Results

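The comparison described here is made in NIH 3T3 cells, an established line of mouse fibroblasts. It sets cells given latrunculin B together with cytochalasin D against control cells of the same line given neither drug. It uses 6 of the 9 arrays of the series: the 3 whose agent label names both drugs and the 3 whose agent label reads control, paired by the replicate numbers 1, 3 and 7 in their titles. Of the 45101 probe sets on the array, the 45037 that are not Affymetrix controls were taken. Cells of every group were serum-starved and were kept under cycloheximide (3 µg/ml, for 2 h), which stops protein synthesis, so controls carry it too. The double-drug group also received cytochalasin D at 2 µM and latrunculin B at 5 µM for 90 min. The remaining 3 arrays are from cells given cytochalasin D at 2 µM for 90 min without latrunculin B. They entered the fit as a source of spread and are set beside the comparison below. The agent label and the stated design give both drugs for this group; its titles mention only latrunculin B, and the group was read from the agent label. F-actin is labelled normal in controls and depolymerized in both drug groups. No group with latrunculin B alone and none free of cycloheximide was analysed here, so the share of each drug in a change cannot be told apart.

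Monomeric actin (G-actin) binds the myocardin-related coactivators Mrtfa and Mrtfb and keeps them away from serum response factor (SRF). Cytochalasin D breaks that contact, latrunculin B binds the monomer and leaves the contact in place, and both drugs take filaments apart. SRF drives genes of the actin cytoskeleton through these coactivators and immediate-early genes through another family of partners, the ternary complex factors downstream of ERK. Immediate-early genes are transcribed from factors already in the cell and so can respond while translation is blocked. The comparison asks which transcripts differ from control when latrunculin B is present.

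The deposited values are normalized, linear intensities of single probe sets, with array medians from 7.549 to 7.824. Of the probe sets, 27034 lay high enough to be tested, covering 12660 genes, and 18003 did not. Changes are differences of log2(intensity + 16), which makes the change of dim probe sets smaller than it would be without the added 16. Fibroblast identity was read from 13 marker genes, of which 12 were tested and 0 were called. Their summed intensity ran from 134000 to 142200 in controls and from 135200 to 137400 with both drugs, and Lum, a matrix proteoglycan, lay at background. Of the markers of other cell types with a probe set, those tested were 5 of 10 for macrophages and leukocytes and 4 of 10 for epithelium. For endothelium they were 0 of 9, for adipocytes 2 of 6 and for skeletal muscle 4 of 8, and 0 were called. As 0.379% of all 12660 genes were called higher and 0.221% lower, 0 calls among so few tells little about any of these markers. Those of endothelium and skeletal muscle all had mean intensities under 16, and 5 of the others lay above that: Lpl with 1738 to 2934 over the 9 arrays, Cd14 with 133.3 to 217.8, Krt14 with 81.9 to 187.1, Lyz2 with 65.95 to 173.7 and Csf1r with 40.02 to 44.78. In bulk RNA, fewer responding cells and less RNA per cell cannot be told apart.

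With both drugs, a small set of transcripts differed from control, led by SRF's own gene and by immediate-early genes on the higher side and by Edn1, Neat1 and Ifnz on the lower side. Of the 27034 probe sets tested, 121 were called (0.448%), at a Benjamini-Hochberg adjusted p under 0.05 in limma with the replicate number as a block. Higher with both drugs were 84 (0.311%), for 61 named genes, and lower were 37 (0.137%), for 34 named genes. The change was at least 2-fold for 32 rises and 3 falls, the median log2 changes being 0.82 and −0.52. In 112 of the 121 the values of the 2 groups did not overlap, which held for 8.07% of all tested probe sets. At an unadjusted p under 0.05 the balance was the other way, with 1532 probe sets lower and 1425 higher.

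The number of calls rested on the pairs and on single arrays. With no replicate block it was 30 (0.111%), 27 up and 3 down, and 24 of these belong to the 121. A fit on the 6 compared arrays alone, paired, left 2 residual degrees of freedom and gave 0 calls in limma, with 3530 probe sets at an unadjusted p under 0.05. In the fit on all arrays but 1, the count was 47, 31 and 27 without control replicates 1, 3 and 7, and 37, 32 and 38 without cytochalasin D replicates 1, 3 and 7. Without double-drug replicate 1 it was 2, and without double-drug replicate 3 or 7 it was 0 in limma, where 2490 and 2333 probe sets still had an unadjusted p under 0.05. No gene below therefore kept its call with every array left out in turn. Zfp36 did so in 7 of the 9 omissions, the most of any named gene. Over the 15 largest rises the adjusted p reached at most 0.206 with 1 array left out, and over the 15 largest falls 0.223.

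**Figure D1:**
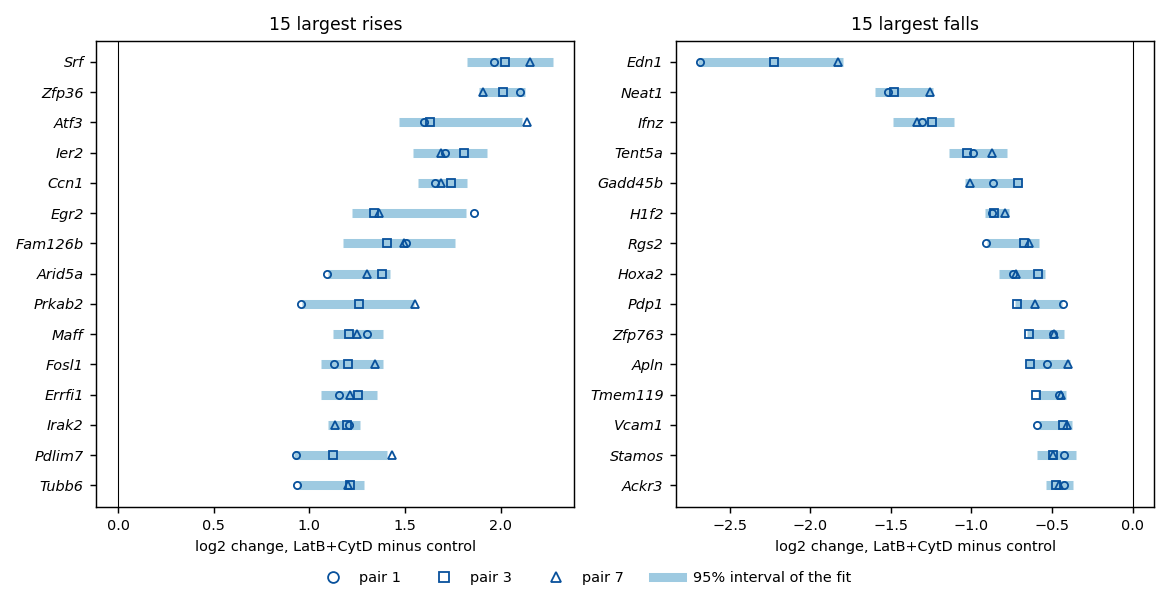
Log2 change of both drugs against control for the 15 genes with the largest rise (left) and the 15 with the largest fall (right); open symbols are the differences within the pairs 1, 3 and 7, and bars the unadjusted 95% interval of the fit. Every pair of every gene shown lies on the same side of 0, as the choice of genes required, and the fitted changes run from 2.05 for Srf to −2.25 for Edn1.

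Of the genes called higher, several carry the sequence that SRF binds close to their start. SRF recognises the CArG box, which was searched on both strands, as an exact match, in windows of 300 bases around the start sites of RefSeq transcripts (assembly GRCm38.p6). Promoters were at hand for 49 of the 61 higher genes and 25 of the 34 lower genes. A CArG box stood in 8 of the 49, or 16.3% (95% Wilson interval 8.51 to 29.0%), in Actg1, Egr2, Fermt2, Lima1, Pitpna, Prkab2, Srf and Zfp36. It stood in 1 of the 25, or 4.0% (0.71 to 19.5%), in Ccsap. The share was 1.59% (1.36 to 1.85%) of the 10218 tested genes with a promoter and 1.81% of all 27025 genes in the table. These shares are a description, a gene with several start sites has more windows to be found in, and a match shows letters and not binding. The stretches shown are the 150 bases that end at the start site, 5′ to 3′ on the gene's strand, for 5 of these genes, with the CArG box in capitals. They lie at chr17:46556163-46556312 (minus strand) for Srf, chr7:28379229-28379378 (minus) for Zfp36, chr11:120348496-120348645 (minus) for Actg1, chr15:99820150-99820299 (minus) for Lima1 and chr11:75587929-75588078 (plus) for Pitpna.
Srf: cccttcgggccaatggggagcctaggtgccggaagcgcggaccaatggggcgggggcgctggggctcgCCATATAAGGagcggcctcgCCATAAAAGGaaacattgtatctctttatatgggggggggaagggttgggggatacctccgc
Zfp36: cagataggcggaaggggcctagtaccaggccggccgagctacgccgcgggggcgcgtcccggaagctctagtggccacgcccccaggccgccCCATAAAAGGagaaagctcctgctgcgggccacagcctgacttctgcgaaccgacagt
Actg1: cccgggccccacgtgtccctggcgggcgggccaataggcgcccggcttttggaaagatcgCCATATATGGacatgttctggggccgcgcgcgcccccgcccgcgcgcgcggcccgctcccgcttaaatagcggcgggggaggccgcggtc
Lima1: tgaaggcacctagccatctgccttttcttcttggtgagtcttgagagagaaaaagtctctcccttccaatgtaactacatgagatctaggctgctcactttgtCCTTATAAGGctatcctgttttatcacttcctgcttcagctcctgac
Pitpna: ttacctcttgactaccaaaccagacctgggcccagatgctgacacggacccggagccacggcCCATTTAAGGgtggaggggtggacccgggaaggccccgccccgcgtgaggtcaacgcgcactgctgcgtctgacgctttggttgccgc
Srf holds 2 boxes, beginning at positions −82 and −62 from the start site, and the other 4 stretches hold 1 each, at −58 for Zfp36, −90 for Actg1, −47 for Lima1 and −88 for Pitpna. The response of these 5 genes spanned a wide range, from 2.05 for Srf to 0.17 for Pitpna, a carrier of phosphatidylinositol that was chosen for display after its values were seen.

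Srf, which encodes SRF itself and carries the pair of boxes shown above, had the largest rise when each gene is taken by its brightest probe set. In replicates 1, 3 and 7 its intensity was 152, 209 and 200 in controls and 639, 896 and 945 with both drugs, so that the groups did not overlap. This is a log2 change of 2.05 (SE 0.09, 4.13-fold, adjusted p = 0.00862, and 0.0393 with no replicate block), and its other probe set was called as well (adjusted p = 0.0293, and 0.0974 with no replicate block). Its coactivators did not pass the test: Mrtfa changed by −0.13 (adjusted p = 0.85) and Mrtfb by 0.04 (adjusted p = 0.917).

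Among the actin genes, Actg1 rose while the muscle forms did not pass the test. Actg1, cytoplasmic gamma-actin, had 18477, 17783 and 18087 in controls and 23924, 23924 and 24193 with both drugs, a narrow spread in both groups. The log2 change was 0.41 (SE 0.04, adjusted p = 0.0391, and 0.0213 with no replicate block). This probe set is very bright, as is that of the fibroblast marker S100a4, which reached 26250. Whether changes and spread are compressed at such intensities was not tested. Acta2, smooth muscle alpha-actin, went from 5884, 5361 and 3634 to 9498, 11177 and 9060, with a change of 1.02 (adjusted p = 0.0877). Acta1, skeletal muscle alpha-actin, had 18.7, 20.4 and 18.5 in controls and 35.4, 70.4 and 62.3 with both drugs. In both genes every double-drug value lay above every control, but the change of Acta1, 1.0 (SE 0.25), had an adjusted p of 0.237. Actb, cytoplasmic beta-actin, changed by 0.14 (adjusted p = 0.425) and Actg2, enteric gamma-actin, by 0.26 (adjusted p = 0.291). Actc1, the cardiac form, lay between 6.045 and 6.53 on the 9 arrays and was not tested. Binding of one actin's transcripts to the probe set of another was not tested.

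In the lists of actin-binding and adhesion genes, those called by their brightest probe set were Lima1, Pdlim7, Tpm4, Tgfb1i1 and Ccn1. Tpm2 was called only in its dimmest probe set (0.76, adjusted p = 0.0491), its brightest changing by 0.29 (0.288). Outside these lists, Fermt2 (0.61, adjusted p = 0.0269) and Actr3 (0.41, 0.0482) were called in a dimmer probe set. Their brightest ones changed by 0.55 (0.0512) and 0.29 (0.411). Ccn1, a secreted matricellular protein, had 2846, 2424 and 2993 in controls and 9022, 8135 and 9694 with both drugs, a clear gap between the groups. Its change of 1.70 (SE 0.05, 3.24-fold, adjusted p = 0.00301) was also called with no replicate block (adjusted p = 0.0172). Of its 4 probe sets, 2 were called with the block, and the other one of these was not called without it (adjusted p = 0.0626). Lima1, a LIM protein that bundles actin filaments, went from 734, 878 and 718 to 1424, 1900 and 1526. It rose by 1.04 (SE 0.05, adjusted p = 0.00862, and 0.0755 with no replicate block), in 4 of 5 probe sets. Another of its called probe sets was also called with no replicate block (adjusted p = 0.0298). Pdlim7, a LIM protein of stress fibres, went from 364, 444 and 411 to 708, 987 and 1136, a rise of 1.16 (SE 0.10, adjusted p = 0.0297, and 0.16 with no replicate block) in 1 of 3 probe sets. Tpm4, a tropomyosin, rose by 0.59 (adjusted p = 0.0284) and Tgfb1i1, a paxillin-like focal adhesion protein, by 0.83 (adjusted p = 0.0384). Tpm4 was also called with no replicate block (adjusted p = 0.0172) and Tgfb1i1 was not (0.101).

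Many other targets of MRTF and SRF had positive changes that did not pass. Myl9, a myosin regulatory light chain, went from 172, 142 and 62.9 to 413, 535 and 313, a change of 1.68 (SE 0.20, adjusted p = 0.0646). Tagln, transgelin, went from 720, 490 and 238 to 1254, 1693 and 1182, a change of 1.59 (SE 0.34, adjusted p = 0.188). In both genes control replicate 7 was the lowest of all arrays. Vcl, vinculin, changed by 0.65 (adjusted p = 0.215), Ccn2, a relative of Ccn1, by 0.60 (adjusted p = 0.352), Pkp2, a desmosomal plaque protein, by 0.61 (adjusted p = 0.186) and Fhl1, a LIM-domain protein of muscle, by 0.07 (adjusted p = 0.942). Counted by list, 1 of 5 tested actin isoforms rose (median change 0.41), 3 of 11 regulators (0.19), 3 of 35 actin-binding and contractile genes (0.22) and 2 of 18 adhesion and secreted genes (0.36), and 0 fell. Over all 12660 genes, with 1 probe set each, 0.379% rose and 0.221% fell, with a median change of 0.0014.

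Immediate-early genes outside the cytoskeleton were among the largest rises. Zfp36, which binds AU-rich messages and speeds their decay, had 285, 288 and 389 in controls and 1272, 1208 and 1503 with both drugs. The lowest double-drug value lay far above the highest control value, and the change was 2.01 (SE 0.05, 4.02-fold, adjusted p = 0.00301, and 0.0172 with no replicate block). Ier2, a nuclear protein of the early serum response, went from 1417, 1044 and 1181 to 4670, 3696 and 3838, a rise of 1.73 (SE 0.08, adjusted p = 0.00862, and 0.0172 with no replicate block). Replicate 1 was the highest in both groups, and the changes within the 3 pairs lay close together. Phlda1, a pleckstrin-homology protein, rose by 0.93 (SE 0.07, adjusted p = 0.0269, and 0.723 with no replicate block), from 893, 1016 and 1404 to 1647, 1998 and 2712. Of the 30 tested genes in this list these 3 rose and 0 fell (0.379% and 0.221% over all 12660 genes), and the median was 0.09. Another early gene, Btg2, an antiproliferative protein, rose by 2.21 in its dimmer probe set (adjusted p = 0.0118), while the brighter one, which stands for the gene in the counts, changed by 1.97 (adjusted p = 0.0517).

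Genes of the AP-1 family, whose proteins pair to bind DNA, had the highest median change of the 24 lists, 0.99. Of its 11 tested members 4 rose and 0 fell, against 0.379% and 0.221% of all 12660 genes. The lists were chosen with earlier results of these data known, so this rank is a description. Atf3, a stress-induced member, had 421, 536 and 744 in controls and 1306, 1696 and 3329 with both drugs, a rise of 1.79 (SE 0.12, adjusted p = 0.025, and 0.413 with no replicate block). Replicate 7 was the highest in both groups. Maff, a small Maf protein, followed the same order, with 81.6, 116 and 151 against 225, 289 and 380, and rose by 1.25 (SE 0.05, adjusted p = 0.00838, and 0.376 with no replicate block). Fosl1, a Fos relative that pairs with Jun proteins, had 581, 607 and 639 against 1288, 1417 and 1647, a rise of 1.22 (SE 0.06, adjusted p = 0.0112, and 0.0395 with no replicate block). Both of its probe sets were called, but the dimmer one was not called with no replicate block (adjusted p = 0.0887). Junb rose by 0.99 (adjusted p = 0.0484, and 0.0393 with no replicate block). Fos went from 928, 2247 and 3230 to 4238, 5408 and 8185, a change of 1.59 (SE 0.22) that did not pass (adjusted p = 0.0918). Jun was split: 1 probe set rose by 1.32 (adjusted p = 0.0391) and the brighter one changed by 1.06 (adjusted p = 0.14).

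The zinc-finger gene Egr2 rose, and its relatives had positive changes that did not pass. Egr2 had 1731, 3049 and 3400 in controls and 6335, 7727 and 8765 with both drugs, a rise of 1.52 (SE 0.12, adjusted p = 0.0284, and 0.264 with no replicate block) found in both probe sets. Egr3 changed by 1.49 (adjusted p = 0.0646) and Egr1 by 0.80 (adjusted p = 0.0994). Nr4a1, an orphan nuclear receptor of the early response, changed by 1.42 (adjusted p = 0.07), and its groups overlapped, with 440, 1288 and 1906 in controls against 1682, 2901 and 4374. In this list of Egr, Nab and Nr4a genes 1 of 8 rose, against 0.379% of all 12660 genes, 0 fell and the median was 0.93.

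Signalling genes among the largest rises act on several routes. Errfi1, an inhibitor of the EGF receptor, had 1682, 2211 and 2125 in controls and 3759, 5302 and 4938 with both drugs, a rise of 1.21 (SE 0.06, adjusted p = 0.0106, and 0.113 with no replicate block). Its dimmer probe set was called as well (adjusted p = 0.0445, and 0.0393 with no replicate block). Irak2, a kinase of the interleukin-1 and Toll-like receptor route, went from 166, 129 and 131 to 402, 317 and 308, and rose by 1.18 (SE 0.03, adjusted p = 0.00301, and 0.071 with no replicate block). In both genes the double-drug values were more than those of any control. Fam126b, a component of the complex that holds a phosphatidylinositol kinase at the plasma membrane, rose by 1.47 (SE 0.11, adjusted p = 0.0289, and 0.0845 with no replicate block), from 94.3, 146 and 139 to 297, 412 and 421. It was called in 2 of 4 probe sets. Prkab2, a regulatory subunit of AMP-activated kinase, rose by 1.25 (SE 0.11, adjusted p = 0.0391, and 0.148 with no replicate block) in 1 of 3 probe sets. Arid5a, which stabilizes inflammatory messages, rose by 1.26 (SE 0.06, adjusted p = 0.011, and 0.457 with no replicate block). Tubb6, a beta-tubulin, had 836, 757 and 872 against 1612, 1774 and 2030, a rise of 1.12 (SE 0.07, adjusted p = 0.0146, and 0.0393 with no replicate block). It was the only called gene among 17 tubulins and microtubule proteins, whose median change was −0.03, while 0.379% of all 12660 genes rose. Dusp5, a nuclear phosphatase of ERK, changed by 1.52 and was called with no replicate block (adjusted p = 0.0393) but not with it (0.0625).

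**Figure D2:**
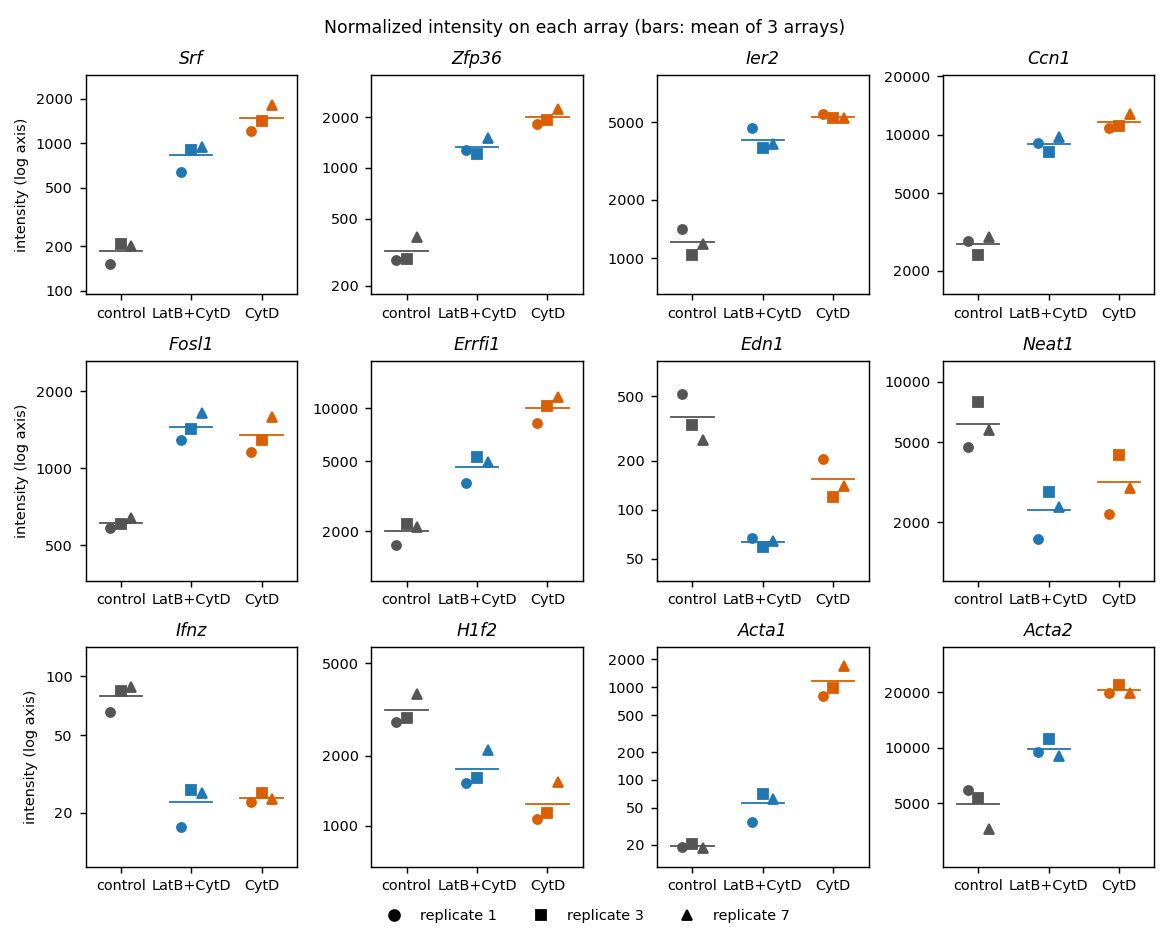
Normalized intensity (log axis) of 12 genes on each of the 9 arrays; symbols mark replicates 1, 3 and 7 and horizontal bars the mean of 3 arrays. Srf, Zfp36, Ier2, Ccn1, Fosl1 and Errfi1 lay above control on every double-drug array and Edn1, Neat1, Ifnz and H1f2 below it, while Acta1 reached 35.4 to 70.4 with both drugs against 799 to 1710 with cytochalasin D alone.

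The falls were led by Edn1, which encodes the vasoconstrictor peptide endothelin-1. Its intensity was 519, 333 and 268 in controls and 67.2, 58.7 and 64 with both drugs, so that controls varied widely and the double-drug arrays hardly at all. It fell by 2.25 on the log2 scale (SE 0.17, adjusted p = 0.0289, and 0.0579 with no replicate block). Neat1, the long non-coding RNA that scaffolds nuclear paraspeckles, went from 4731, 7940 and 5729 to 1644, 2838 and 2388. It fell by 1.42 (SE 0.07, adjusted p = 0.011, and 0.325 with no replicate block), in 1 of 2 probe sets. The other probe set of Neat1 changed by 0.0025 but lay near background, at 6.74 in controls and 6.78 with both drugs. Ifnz, a type I interferon gene, went from 65.5, 83.9 and 88.6 to 17, 26.1 and 25.4, and fell by 1.30 (SE 0.07, adjusted p = 0.0128). It was the only one of the 15 named falls also called with no replicate block (adjusted p = 0.0385).

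Smaller falls touched stress, chromatin and signalling genes. H1f2, a linker histone, had 2806, 2912 and 3679 in controls and 1527, 1595 and 2116 with both drugs; it fell by 0.84 (SE 0.03, adjusted p = 0.00572, and 0.326 with no replicate block) and both probe sets were called. Gadd45b, a stress-response gene, went from 1699, 1913 and 2311 to 927, 1160 and 1139, a fall of 0.86 (SE 0.07, adjusted p = 0.0292, and 0.119 with no replicate block) in 1 of 2 probe sets. Tent5a, a non-canonical poly(A) polymerase, went from 429, 506 and 378 to 208, 241 and 200, a fall of 0.96 (SE 0.07, adjusted p = 0.0269, and 0.0977 with no replicate block). The groups of all 3 genes were apart. Rgs2, which shuts off G-protein signalling, had 3471, 2879 and 2950 against 1838, 1801 and 1880 and fell by 0.74 (SE 0.06, adjusted p = 0.0323, and 0.071 with no replicate block), in 2 of 4 probe sets. The other named falls were Hoxa2, a homeobox gene (−0.68), Pdp1, a phosphatase that activates pyruvate dehydrogenase (−0.58), Zfp763 (−0.54), Apln, the ligand of the apelin receptor (−0.52), Tmem119, a membrane protein (−0.50), Vcam1, a leukocyte adhesion molecule (−0.48), Stamos (−0.47) and Ackr3, a scavenging chemokine receptor (−0.45). Stamos was dim, with means of 18.7 in controls and 9.03 with both drugs, around the added 16, which makes its change smaller. None of these 8 genes was called with no replicate block, where the adjusted p ran from 0.0879 for Hoxa2 to 0.91 for Vcam1. Vcam1 was called in 1 of 3 probe sets, and Pdp1 and Zfp763 each in 1 of 2. Larger changes that did not pass were those of Arrdc3, an alpha-arrestin (−1.30, adjusted p = 0.105), and Ccl2, a monocyte chemokine (−1.04, adjusted p = 0.124).

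Cytochalasin D alone, against the same control arrays, gave 1044 calls (3.86%) in the same fit, and 99 probe sets (0.366%) differed between the drug groups. Since these contrasts share arrays, their values are only set side by side. The difference between the drug groups was called for several muscle and adhesion genes: it was 4.0 for Acta1 (adjusted p = 0.0271), where cytochalasin D alone reached 799, 995 and 1710. It was 2.24 for Actg2 (adjusted p = 0.00706), 2.05 for Pkp2 (0.0271) and 1.74 for Fhl1 (0.0351), which all lay higher with cytochalasin D alone. Among the 15 largest rises it was called for 4: Fam126b (1.41, adjusted p = 0.0351), Errfi1 (1.11, 0.0175), Irak2 (0.75, 0.0133) and Zfp36 (0.58, 0.0351), each higher without latrunculin B. Lima1 differed by 0.83 (adjusted p = 0.0235) and Phlda1 by 1.01 (adjusted p = 0.0292). Srf changed by 2.87 with cytochalasin D alone and 2.05 with both drugs, a difference of 0.82 that did not pass (adjusted p = 0.0551). The same held for Acta2, at 2.08 and 1.02 (adjusted p = 0.0873 for the difference).

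Other genes had close values in both drug groups. Fosl1 changed by 1.11 with cytochalasin D alone and 1.22 with both drugs, a difference of −0.11 (unadjusted 95% interval −0.27 to 0.05). The difference was 0.06 for Maff (−0.07 to 0.19), −0.06 for Arid5a (−0.23 to 0.10), 0.07 for Actg1 (−0.03 to 0.16) and 0.05 for Ifnz (−0.14 to 0.24). Egr1 differed by −0.02 (−0.33 to 0.29). These intervals leave room for small differences in either direction. For the very bright Actg1, compression of differences at high intensity was not tested. Among the falls, H1f2 lay lower with cytochalasin D alone (−1.33, adjusted p of the difference 0.0271). Edn1 and Neat1 lay lower with both drugs than with cytochalasin D alone, where they changed by −1.17 and −0.97, but the differences of 1.08 and 0.44 did not pass (adjusted p = 0.127 and 0.121).

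**Figure D3:**
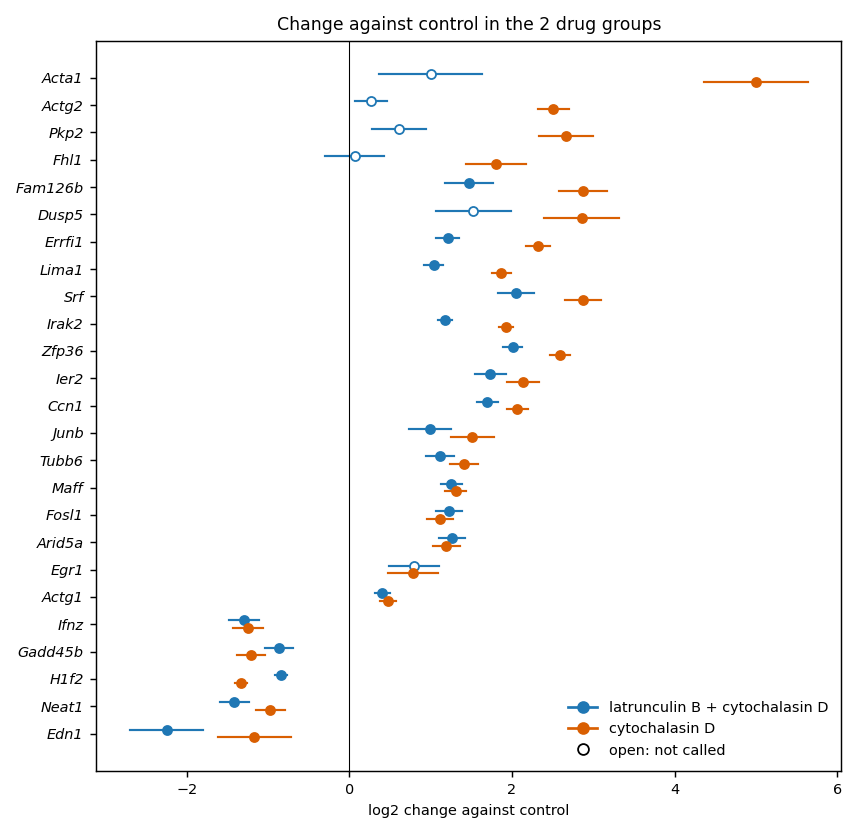
Log2 change against control for 25 genes with both drugs (blue) and with cytochalasin D alone (orange), with unadjusted 95% intervals; open symbols mark changes that were not called. Acta1, Actg2, Pkp2 and Fhl1 lie far apart in the 2 groups, whereas Maff, Fosl1, Arid5a, Egr1, Actg1 and Ifnz nearly coincide; both sets of changes share the control arrays.

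In at least 1 probe set of 3 genes, chosen after their values were seen, the change was larger with both drugs or ran the other way than with cytochalasin D alone. Jag1, a ligand of Notch receptors, had 479, 369 and 401 in controls, 412, 327 and 358 with both drugs and 540, 431 and 474 with cytochalasin D alone. The values of the groups overlap, but within each pair Jag1 was lowest with both drugs: it fell by 0.18 there (adjusted p = 0.0471), rose by 0.21 with cytochalasin D alone (adjusted p = 0.00878), and differed by 0.38 between the drug groups (adjusted p = 0.0133). Hivep2, a large zinc-finger protein, rose by 0.32 with both drugs in the called probe set (adjusted p = 0.0138) and changed by 0.03 with cytochalasin D alone, a called difference of −0.29 (adjusted p = 0.0271). Its brighter probe set changed by −0.0047 (adjusted p = 0.997), with a difference of −0.16 between the drug groups (adjusted p = 0.803). Mcl1, an anti-apoptotic relative of Bcl2, was called in 3 probe sets at 0.36 to 0.40, against 0.06 to 0.13 with cytochalasin D alone, and 1 of the 3 differences was called (−0.27, adjusted p = 0.0356). The brightest probe set of Mcl1 changed by 0.09 (adjusted p = 0.35) and none of the Jag1, Hivep2 and Mcl1 calls held with no replicate block.

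More called genes, also chosen after their values were seen, belong to adhesion, protein folding, transport and actin branching. Pvr, a nectin-like adhesion receptor, rose in 4 of 7 probe sets, the brightest by 0.82 (adjusted p = 0.0128). Dnajb4, a co-chaperone of Hsp70, rose by 0.70 (SE 0.02, adjusted p = 0.00301, and 0.131 with no replicate block) from 1788, 2043 and 2096 to 2830, 3408 and 3440, and both probe sets were called. Mob3a, a kinase-binding protein, rose by 1.04 (adjusted p = 0.0232), Slc2a1, the glucose transporter Glut1, by 0.66 (adjusted p = 0.0289), and Arpc5, a subunit of the Arp2/3 complex that branches actin filaments, by 0.47 (adjusted p = 0.0269). Rcan1, an inhibitor of calcineurin, rose by 1.37 in the called probe set (adjusted p = 0.0369, and 0.0393 with no replicate block), while its brighter probe set changed by 1.15 (adjusted p = 0.0922). On the lower side, Gas1, a growth-arrest protein, fell by 0.66 in 1 of 3 probe sets (adjusted p = 0.0118), while its brightest changed by −0.31 (adjusted p = 0.098). Dab2, an endocytic adaptor, fell by 0.94 in its dimmest probe set alone (adjusted p = 0.0391). The 3 brighter ones changed by −0.0046, 0.06 and 0.03 (adjusted p = 0.989, 0.809 and 0.979). In the probe sets whose changes are given here, Mob3a, Rcan1 and Dab2 were also called with no replicate block (adjusted p = 0.0393 for each). Pvr, Dnajb4, Slc2a1, Arpc5 and Gas1 were not. Dimmer probe sets of Pvr (adjusted p = 0.0172 and 0.0298) and Dnajb4 (0.0172) were called with no replicate block.

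Beyond the lists of cytoskeletal and early genes, no list had more than 2 rises or 1 fall. All 24 lists together, those of cytoskeletal and early genes included, had 382 tested genes, of which 19 rose and 5 fell. Over all 12660 genes, 0.379% rose and 0.221% fell. NF-kappaB targets and chemokines had Ptgs2, cyclooxygenase-2, higher (0.99, adjusted p = 0.0293, and 0.141 with no replicate block) and Vcam1 lower among 21, with a median of −0.07. The dimmer probe set of Ptgs2 changed by 1.30 and did not pass (adjusted p = 0.0922). Stress response genes had Atf3 and Atf4, a regulator of amino acid metabolism (0.25, adjusted p = 0.0491), higher and Gadd45b lower among 20 (median 0.16). The next brightest probe set of Atf4 changed by 0.18 and did not pass (adjusted p = 0.112). YAP/TAZ-TEAD targets had Ccn1 higher and Gadd45b lower among 22 (median −0.03). Feedback inhibitors of receptor and ERK signalling had Errfi1 higher among 19 (median 0.09), while Spry1, an inhibitor of receptor tyrosine kinase signalling, changed by −0.76 (adjusted p = 0.0922). Ifnz was the 1 fall among 8 interferon genes, H1f2 among 6 histone genes and Tent5a among 15 alpha-arrestin and growth-arrest genes, with medians of −0.17, −0.16 and −0.20.

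The remaining 9 lists held 0 calls in limma: 21 G-actin binding and sequestering proteins (median 0.05), 13 growth factor ligands (0.0030), 18 p53 targets (−0.0076), 12 heat shock genes (0.02), 20 TGF-beta and BMP response genes (−0.15), 21 extracellular matrix genes (0.0012), 16 clock genes (0.05), 15 cholesterol genes (0.07) and 19 G1/S and mitosis genes (−0.04). With 0.379% of all 12660 genes called higher and 0.221% lower, 0 calls in lists of this size tells little. Counting a gene where any of its probe sets was called brought in Btg2 among the p53 targets and Dnajb1, an Hsp40 co-chaperone, among the heat shock genes. Tmsb4x, thymosin beta-4, the main sequestering peptide of G-actin, changed by 0.25 (adjusted p = 0.11).

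**Figure D4:**
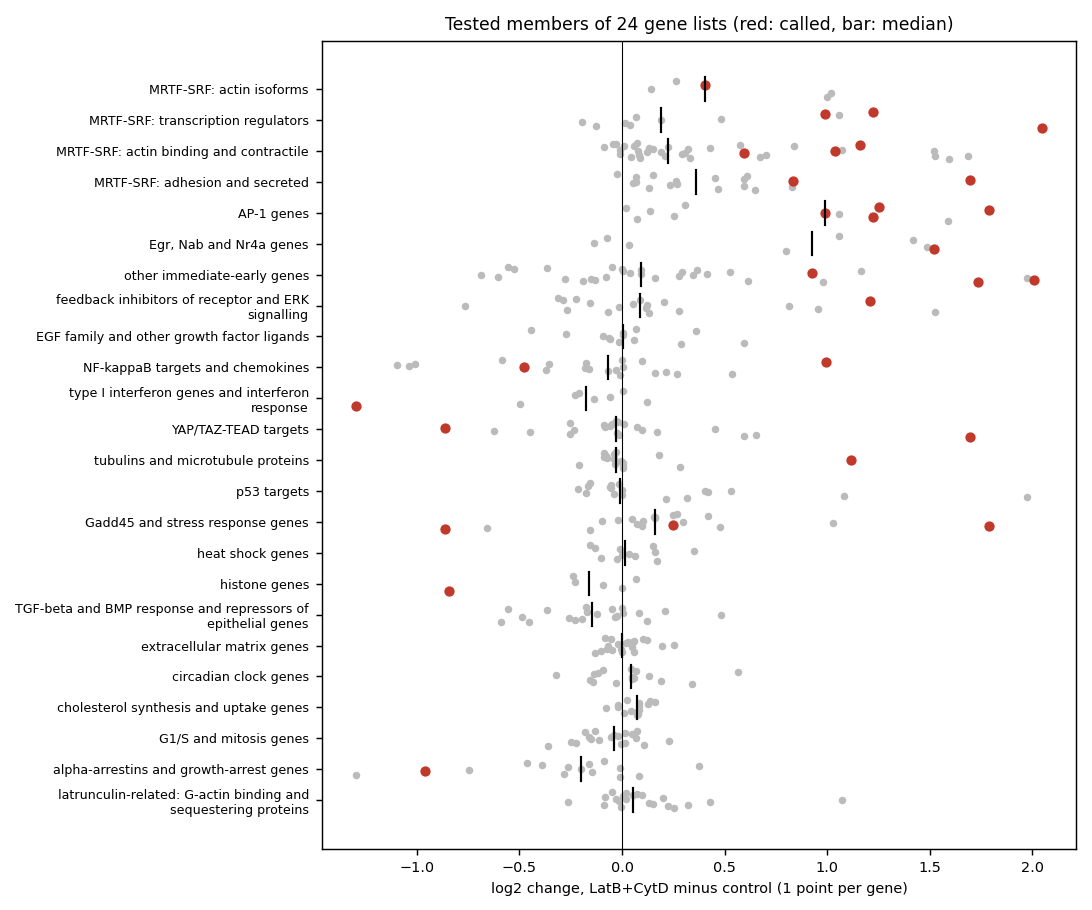
Log2 change of both drugs against control for the tested members of the 24 gene lists, 1 point per gene, with called genes in red and a bar at each list's median. The median reaches 0.99 for AP-1 genes and 0.93 for Egr, Nab and Nr4a genes, and lies near 0 for most other lists.

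Different probe sets of a gene bear on how far a call can be read. Of the 95 called genes, 32 had 1 tested probe set and 63 had several. In 6 of the 63 all probe sets were called, in 13 at least 2 were, and in 0 were calls in opposite directions. In 51 of the 63 all tested probe sets changed in the same direction. Some of these lay near background, where a direction tells little, such as a Gcnt2 probe set at 7.74 in controls and 7.84 with both drugs. A missing call tells as little there, as in the dimmest probe sets of Neat1 (6.74 in controls), Pdlim7 (8.94) and Rgs2 (13.0). The share among genes that were not called was not counted.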

How the data were processed

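Total RNA of NIH 3T3 cells was measured on 9 Affymetrix arrays. The deposited intensity values, on a linear scale, had been normalized by the authors. Per the submitters' processing notes the tools were MAS5 and GCRMA, with no version and no word on which gave these values, and the scale was read from the values. A genome build for the probe sets is not given in the sources used here. Groups followed the agent labels.

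Of 45037 probe sets, 34945 carried 1 gene symbol, 932 several and 9160 none in the platform annotation. Probe sets above the 40th percentile of their array on at least 3 arrays were tested (27034; 22837 with 1 symbol). On log2(intensity + 16), limma 3.58.1 in R 4.3.3 fitted the group and the replicate number as a fixed block to all 9 arrays, with 4 residual degrees of freedom, then eBayes. Tests were two-sided, adjusted by Benjamini-Hochberg over the tested probe sets, and called under 0.05. The code was tested on simulated data. The series design calls the arrays of a condition independent biological replicates. The comparison is paired by number. As a check, the deviations of same-numbered control and double-drug arrays from their group means correlated across probe sets at 0.834, 0.413 and 0.663 for replicates 1, 3 and 7, and those of differently numbered arrays at −0.72 to 0.376. Deviations within a group sum to 0, so the values for same and different numbers depend on each other. For the third group the lowest same-number value was 0.0762 (control and cytochalasin D, replicate 3). Control replicate 3 and cytochalasin D replicate 7 correlated more highly, at 0.391.

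The naming rule took 15 rises and 15 falls, the largest among calls whose 3 pairs shared a direction, then up to 4 members per list with the smallest adjusted p, and 20 fixed genes; 5 falls with clone names were passed over. The brightest tested probe set stands for a gene. The pairing, gene lists and naming rule were chosen with earlier results of these data known. Lists are described by counts and medians, without a set test. Results of 1 list are left out here. Promoters come from RefSeq (GRCm38.p6), matched by symbol. Alternatives tried were other or no blocks, fits on 6 arrays, other added values, filters, normalizations and priors, and leaving out arrays.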

Additional observations from a re-analysis of the deposited data

How the results depend on the processing

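The 121 calls depended on several choices. There were 30 with no replicate block, 0 in a paired fit on the 6 arrays compared (limma; 3530 at an unadjusted p under 0.05) and 1 in that fit without the block, and 28 with no filter on low values. There were 377 with a filter at the 60th percentile (249 higher, 128 lower), 663 after median centring (406 and 257) and 210 with a trended, robust prior. Counts ranged from 0 to 47 with 1 array left out, and were 0 without replicate number 1, 3 or 7 (2607, 2966 and 2348 at an unadjusted p under 0.05, limma). A random block (139), an added value of 1 (145) or 64 (88) and quantile normalization (133) kept the count within 1.5 times. The probe sets were not all the same: 75, 107, 83 and 99 of these calls, in that order, belong to the 121. The lists held 19 higher and 5 lower genes, and 12 and 1 with no replicate block, the 12 not all among the 19. Allowing 1 mismatch in the CArG box raised its share among higher genes from 16.3% to 32.7%, against 10.3% of all tested genes. In none of these alternatives did a named called gene change direction. The cause of these differences was not tested. The number of arrays, 3 a group, limits the precision, and dim probe sets near the added value can show only small changes.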
